A study of Sus scrofa with 34 samples.

Results

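The Nrf2 pathway was followed through 9 pig genes, which were taken by their Ensembl symbol out of 25880 genes counted in liver and ileum, of which 14857 carried a symbol. They are NFE2L2, which encodes the transcription factor Nrf2, its inhibitor KEAP1, and 7 genes known as direct Nrf2 targets: GCLC, GCLM, SLC7A11, TXNRD1, SRXN1, NQO1 and HMOX1. Rows were matched by symbol alone, but the list of genes was drawn up with earlier results of these data known. Each symbol was found once in both tissues, and all 9 genes passed the filter on low counts in every fit.

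RNA was sequenced from crossbred weaned piglets that had received 1 of 4 diets for 28 days, and the study asked how an essential oil-based phytogenic feed additive (PFA) acts in the ileum, and in the liver under oxidative stress. Livers came from 6 pigs on the basal diet (control), 6 on the basal diet with PFA, 6 on the basal diet with oxidized oil (OO) and 6 with both (OO + PFA), of which 1 was left out of the fits, as the study did. Ileum came from 5 control and 5 PFA pigs, all of which also gave a liver. The deposited values were raw counts per gene, between 18738055 and 42446834 per library.

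The groups differ in feed, and all share the crossbreed and the basal diet. The design text gives 28 days as the age of the pigs, whereas the methods give it as the time of feeding after weaning. By the methods, the piglets were weaned and acclimatized before these 28 days of feeding began. They were therefore older than 28 days at sampling. All pigs of a diet shared 1 pen, and effects of the pen cannot be told apart from those of the diet. The oil diets contained more fat than the other diets, and oxidation of the oil and added fat cannot be told apart either, as no diet had the same amount of fresh oil. Replicates are pigs. Liver and ileum are mixtures of cells, so fewer cells of a type and less RNA per cell cannot be told apart. As CPM (counts scaled to a common library size) of each library's own total, hepatocyte markers (5 of 5 with a symbol, such as ALB) summed to at least 71277 in every liver used and to at most 3874 in the ileum. Enterocyte markers (4 of 5, such as VIL1) summed to at least 7865 in the ileum and to at most 692 in the livers. All other CPM are scaled by TMM factors within a tissue unless stated.

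Nrf2 is made continuously and, in unstressed cells, is held by KEAP1 and handed to the CUL3-RBX1 ubiquitin ligase for degradation. Electrophiles and oxidants modify cysteines of KEAP1, Nrf2 then escapes degradation, enters the nucleus, pairs with a small MAF protein and binds the antioxidant response element of its targets. Because this switch acts on the protein, the mRNA of the target genes, and not that of NFE2L2 or KEAP1, is the usual readout of the pathway. In liver the targets serve glutathione synthesis, thiol reduction, quinone detoxification and heme breakdown.

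The letters of the response element were sought in the 1000 bases before the RefSeq start of each gene (Sscrofa11.1, the build of the files). The motifs were TGACNNNGC, TGACTCAGC and TGAGTCAGC on both strands. The first contains the second. At least 1 motif was present before 5 of the 9 genes, and before 31.6% of all 13657 genes with such a region. TGACNNNGC was found before 31.1% of genes, TGACTCAGC before 1.17% and TGAGTCAGC before 0.769%. The windows of the 4 targets with a motif on the strand of the gene are shown with the motif in capitals, to set these letters beside the values that follow.
NQO1 (chr6:17292722-17292790, plus strand): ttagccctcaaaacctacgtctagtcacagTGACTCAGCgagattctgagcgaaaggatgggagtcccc
SRXN1 (chr17:34582116-34582184, plus strand): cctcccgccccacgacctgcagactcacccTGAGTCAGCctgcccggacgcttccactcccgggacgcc
GCLM (chr4:123370695-123370763, plus strand): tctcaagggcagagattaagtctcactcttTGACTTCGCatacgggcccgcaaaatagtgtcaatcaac
GCLC (chr7:27209353-27209421, plus strand): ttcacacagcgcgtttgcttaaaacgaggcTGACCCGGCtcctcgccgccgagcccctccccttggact

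The motif began 210 bases before the start of NQO1, 231 before SRXN1, 473 before GCLM and 182 before GCLC. GCLC had another match on the opposite strand, 692 bases before its start, and KEAP1 had 1 on the opposite strand, 607 bases before its start. These letters were not in this window of NFE2L2, HMOX1, TXNRD1 or SLC7A11. A match is a description of the letters and not of binding.

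In the liver, no member passed the test in any diet comparison. Across the 4 diets, 0 of 9 members had an adjusted p of at most 0.05 (edgeR's quasi-likelihood F-test, 3.66% of 13831 genes called), and the smallest adjusted p was 0.221, for TXNRD1. The count of members called was also 0 of 9 for OO against control (2.71% of genes called), OO + PFA against control (5.08%) and both oil diets against both diets without oil (11.8%). PFA against control, OO + PFA against OO and the interaction of oil and PFA each called 0% of all genes and 0 of 9 members. At an unadjusted p under 0.05, these 3 comparisons had 1522, 1176 and 1881 genes, among them 0, 0 and 1 member. DESeq2 called 37, 31 and 161 genes in them, and 0 of 9 members. The members under 0.05 before adjustment were TXNRD1 for OO against control and for the interaction, HMOX1 for OO + PFA against control, and HMOX1 and KEAP1 for both oil diets.

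The 95% intervals were as follows. For OO against control, the 95% interval of the fold change lay within 2-fold in either direction for 9 of 9 members, and within 1.5-fold for 5. For both oil diets together it lay within 2-fold for 9 and within 1.5-fold for 6. For PFA against control the counts were 9 and 6. For OO + PFA against control it lay within 2-fold for 8, the exception being HMOX1 (up to 2.54-fold), and for the interaction also for 8, the exception being SLC7A11 (up to 2.52-fold). The median log2 fold change of the 9 members was 0.18 for OO against control (0.06 over all genes tested), 0.16 for both oil diets (0.01) and -0.00 for PFA (0.03). These comparisons share pigs, so their values are not independent of each other.

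**Figure D1:**
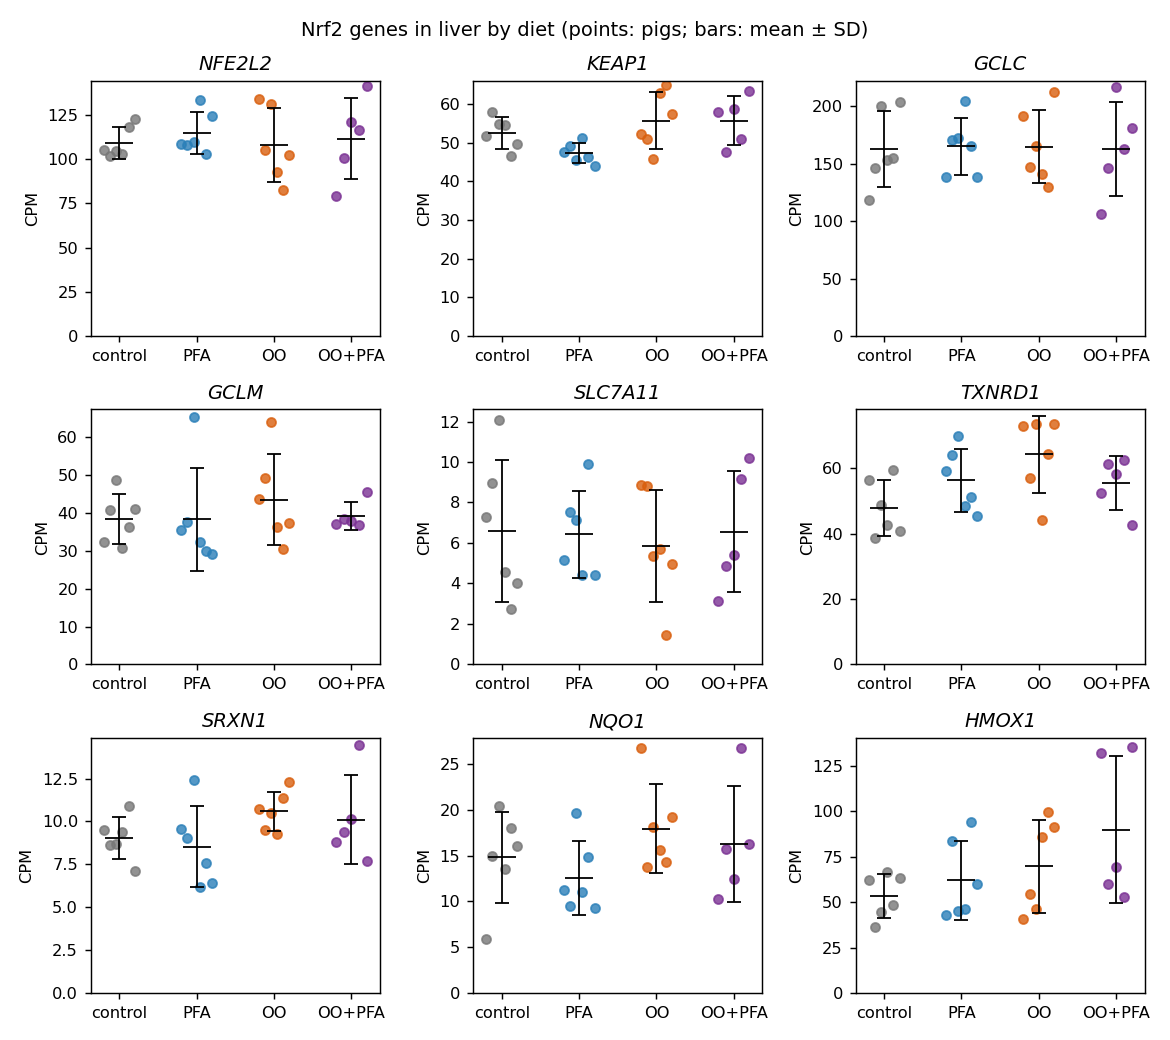
Level of each of the 9 genes in liver (CPM, axis from 0) by diet, with 1 point per pig and the mean ± SD as bars, for control, PFA and OO (6 pigs each) and OO+PFA (5 pigs). OO and OO+PFA overlap control in every panel. TXNRD1 has 4 of 6 OO pigs above every control pig, and HMOX1 has the widest spread in OO+PFA, from 52.6 to 135 CPM.

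The regulator itself had similar means on all diets. NFE2L2 (ENSSSCG00000015987, chromosome 15, 82967485 to 83146185) was measured at 109 ± 8.91 CPM in control (SD, n = 6), 115 ± 11.8 in PFA (n = 6), 108 ± 20.8 in OO (n = 6) and 112 ± 23.1 in OO + PFA (n = 5). Control pigs ranged from 101.7 to 123 CPM with a median of 104.8, and OO pigs from 82.4 to 134 with a median of 104. The OO pigs therefore lay on both sides of the control range, with 2 above and 2 below it. The log2 fold change was -0.02 for OO against control (SE 0.13, adjusted p = 0.959) and -0.03 for both oil diets (SE 0.10, adjusted p = 0.895).

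KEAP1 (ENSSSCG00000023667, chromosome 2, 69280940 to 69290267), the inhibitor, had its lowest median in PFA. Control pigs ranged from 46.5 to 57.8 CPM (median 53.3), PFA pigs from 44.1 to 51.1 (median 46.8) and OO pigs from 45.8 to 64.9 (median 54.8). The OO + PFA pigs had 57.9, 47.6, 58.6, 51.1 and 63.3 CPM. In PFA, 3 of 6 pigs lay below every control pig, and in OO + PFA 3 of 5 lay above, with overlap in both cases. The log2 fold change was -0.15 for PFA against control (SE 0.10, adjusted p = 0.562) and 0.16 for both oil diets (SE 0.07, adjusted p = 0.133).

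None of the members for glutathione synthesis passed the test. GCLC (ENSSSCG00000001488, chromosome 7, 27209565 to 27253535) is the catalytic and GCLM (ENSSSCG00000037549, chromosome 4, 123371198 to 123390130) the modifier subunit of glutamate-cysteine ligase, which makes the first bond of glutathione. GCLC had 163 ± 33.0 CPM in control, 165 ± 24.9 in PFA, 165 ± 31.8 in OO and 163 ± 41.0 in OO + PFA, and its log2 fold change for OO against control was 0.02 (SE 0.16, 95% interval -0.33 to 0.36). The 4 means differed by less than the SD between pigs of any diet. GCLM ranged from 30.9 to 48.8 CPM in control (median 38.6), from 29.2 to 65.3 in PFA (median 33.97) and from 30.4 to 64.1 in OO (median 40.5). The OO + PFA pigs had 37.0, 38.5, 38.0, 36.8 and 45.6 CPM, within the control range. GCLM had a log2 fold change of 0.18 for OO against control (SE 0.19, adjusted p = 0.605).

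SLC7A11 (ENSSSCG00000022649, chromosome 8, 88608083 to 88690589) is the light chain of the cystine/glutamate exchanger, which brings in cystine for glutathione. It was the least abundant member per length, at 2.74 to 12.1 CPM in control (median 5.93), 4.42 to 9.89 in PFA (median 6.14), 1.45 to 8.88 in OO (median 5.51) and 3.16, 4.86, 5.42, 9.17 and 10.2 in OO + PFA. Its interval was the widest, with a log2 fold change of -0.17 for OO against control (95% interval -0.96 to 0.61). The diets overlapped, and changes within that interval remain compatible with the values of these pigs.

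TXNRD1 (ENSSSCG00000000843, chromosome 5, 80170334 to 80213889), the cytosolic thioredoxin reductase that returns oxidized thioredoxin to its active form, was the member closest to a call. Control pigs ranged from 38.6 to 59.5 CPM with a median of 45.8. PFA pigs ranged from 45.2 to 70.0 with a median of 55.1, and OO pigs from 44.2 to 73.5 with a median of 68.7. The OO + PFA pigs had 52.3, 61.4, 58.4, 62.5 and 42.7 CPM.

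Thus 4 of 6 OO pigs, but 2 of 6 PFA and 2 of 5 OO + PFA pigs, lay above every control pig. TXNRD1 was 1.34-fold the control level in OO (95% interval 1.09 to 1.66, log2 0.42, SE 0.15), which did not pass the correction (adjusted p = 0.100). The log2 fold change was 0.24 for PFA against control (adjusted p = 0.557), 0.21 for OO + PFA against control (adjusted p = 0.448) and -0.21 for OO + PFA against OO (adjusted p = 0.719). The interaction of oil and PFA was -0.45 (SE 0.21, adjusted p = 0.356), so a different effect of oil with and without PFA was not shown. The liver titles take 2 forms, whose meaning the labels do not give. Within them, TXNRD1 was 0.29 higher (log2) in OO than in control in the form PigLiv (adjusted p = 0.375) and 0.60 higher in the form PL (adjusted p = 0.280).

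SRXN1 (ENSSSCG00000023298, chromosome 17, 34582377 to 34589308) encodes sulfiredoxin, which restores overoxidized peroxiredoxins, and had the letters TGAGTCAGC in the window printed above. It had 9.03 ± 1.24 CPM in control, 8.54 ± 2.34 in PFA, 10.6 ± 1.13 in OO and 10.1 ± 2.598 in OO + PFA. In OO, 2 of 6 pigs exceeded every control pig. SRXN1 had a log2 fold change of 0.23 for OO against control (SE 0.17, adjusted p = 0.445) and 0.24 for both oil diets (SE 0.12, adjusted p = 0.206). In the libraries of the title form PL alone the latter value was -0.046. That form had a single OO + PFA liver in the fit. Its values for both oil diets therefore cannot show whether a change recurs.

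NQO1 (ENSSSCG00000002754, chromosome 6, 17292962 to 17302593), the quinone reductase often used as the reference target of Nrf2, was at a low level. It ranged from 5.92 to 20.4 CPM in control (median 15.5), from 9.26 to 19.7 in PFA (median 11.12) and from 13.7 to 26.8 in OO (median 16.9), and the OO + PFA pigs had 10.3, 15.7, 12.4, 26.8 and 16.2 CPM. A single pig in each oil diet lay above the control range. NQO1 had a log2 fold change of 0.28 for OO against control (SE 0.26, adjusted p = 0.563), -0.24 for PFA (SE 0.26, adjusted p = 0.754) and 0.33 for both oil diets (SE 0.19, adjusted p = 0.268). In the title form PL alone the value for OO against control was -0.099.

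HMOX1 (ENSSSCG00000039745, on an unplaced scaffold of the assembly), the inducible heme oxygenase, had the largest log2 fold change of the members for OO + PFA against control and for both oil diets. It is also the member that macrophages of liver, which clear aged red cells, are known to express strongly. Control pigs ranged from 36.1 to 66.7 CPM (median 55.3), PFA pigs from 42.7 to 94.1 (median 53.2) and OO pigs from 40.9 to 99.8 (median 70.1). The OO + PFA pigs had 132, 60.3, 69.3, 52.6 and 135 CPM.

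HMOX1 values lay above every control pig in 3 of 6 OO, 3 of 5 OO + PFA and 2 of 6 PFA pigs. The fold change was 1.68 for OO + PFA against control (95% interval 1.11 to 2.54, log2 0.75, SE 0.29), which did not pass the correction (adjusted p = 0.118). It was 0.38 on the log2 scale for OO against control (SE 0.28, adjusted p = 0.442), 0.37 for OO + PFA against OO (SE 0.29, adjusted p = 0.736) and 0.46 for both oil diets (SE 0.20, adjusted p = 0.133). Within the title forms, the value for both oil diets was 0.51 (PigLiv, adjusted p = 0.154) and 0.73 (PL, with a single OO + PFA liver).

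Macrophage markers are given beside it on the same scale. The 6 listed markers (CD68, CD163, C1QA, C1QB, MARCO and CSF1R) all had a symbol, and none was at 0 in a diet. They summed to between 231 and 870 CPM in control (median 495), between 362 and 928 in PFA (median 669), between 622 and 1007 in OO (median 713) and between 440 and 1223 in OO + PFA (median 716). The highest sum was in pig 79 on OO + PFA, which had 132 CPM of HMOX1, and the lowest in pig 80 on control, which had the lowest HMOX1. The OO + PFA pig with the highest HMOX1 (135 CPM) had a macrophage sum of 817 CPM. Of the 6 markers, 1 rose for both oil diets together (MARCO, log2 0.81, adjusted p = 0.0295), where 8.95% of all genes rose, and 0 of 6 were called for OO or OO + PFA against control. The part of these cells in the HMOX1 values was not tested.

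**Figure D2:**
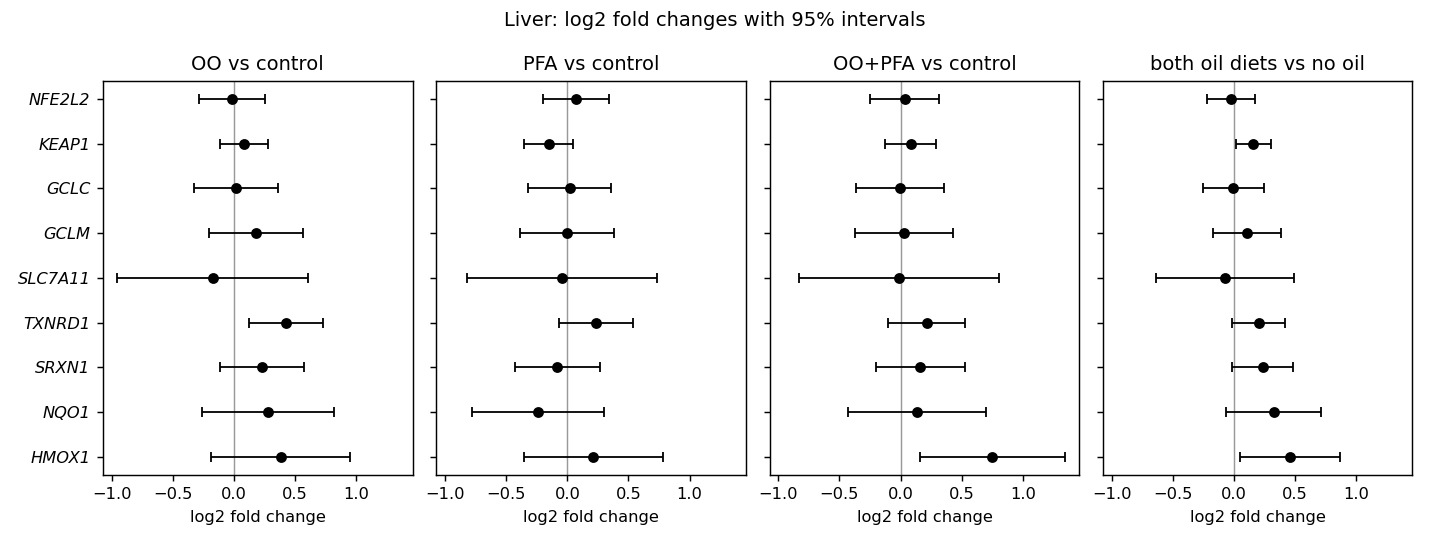
Log2 fold change (x axis) of the 9 genes in liver with 95% intervals, for OO, PFA and OO+PFA against control and for both oil diets against both diets without oil. In the first panel the interval of TXNRD1 (0.12 to 0.73) lies above 0, and in the third that of HMOX1 (0.16 to 1.35), but no adjusted p reached 0.05.

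The livers also differed in a property with which some members went more closely than others. For each library, the slope of its log2 CPM on the GC content of genes was computed, relative to the mean of all livers and per 10 percentage points of GC. A positive slope means that GC-rich genes were counted relatively more often. It comes from the same counts as the levels, so GC-rich genes tend to rise with it and GC-poor genes to fall. The share of all genes that went with the slope as closely as these members was not computed. The slope ranged from -0.23 to 0.06 in control, from -0.49 to 0.03 in PFA, from -0.41 to 0.39 in OO and from 0.00 to 0.45 in OO + PFA. HMOX1 and KEAP1 were the GC-richest members (60.6% and 60.9% of exon bases), and SLC7A11, GCLM and NFE2L2 the poorest (35.2%, 39.0% and 42.0%).

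Over the 23 livers, the log2 CPM of HMOX1 rose with the slope (r = 0.72, rho = 0.64, permutation adjusted p = 0.00108 and 0.00612 over 9 members), as did KEAP1 (r = 0.67, rho = 0.62, adjusted p = 0.00230 and 0.00612). NFE2L2 fell with it (r = -0.61, rho = -0.63, adjusted p = 0.00663 and 0.00612). The permutations shuffled livers across diets, and the slope shares the counts. These p-values therefore do not set the members apart from other genes of like GC content. Without the 2 farthest libraries (pigs 95 and 79) r was 0.64, 0.63 and -0.57. Within diets, after the diet means were subtracted, it was 0.66, 0.62 and -0.67. Within the title forms r was 0.86 (PigLiv, n = 14) and 0.59 (PL, n = 9) for HMOX1, 0.59 and 0.80 for KEAP1, and -0.84 and -0.13 for NFE2L2, so that the last value was small in the form PL. GCLM had r = -0.48 (adjusted p = 0.0437) and rho = -0.32 (adjusted p = 0.242), with r = -0.66 within diets. TXNRD1 had r = -0.25, and -0.46 within diets. For the 5 members other than HMOX1, KEAP1, NFE2L2 and GCLM, r lay between -0.31 and 0.02 over all livers, with no adjusted p under 0.05, and between -0.46 and -0.20 within diets.

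The mean slope differed by diet, with -0.10 in control, -0.16 in PFA, 0.01 in OO and 0.19 in OO + PFA. An effect of diet on GC-rich or GC-poor genes and one of the slope therefore cannot be told apart. With the slope as a term in the fit, the members moved in different ways. The log2 fold change of HMOX1 for both oil diets was 0.06 (SE 0.17, adjusted p = 0.918) instead of 0.46, and that of KEAP1 0.07 (SE 0.06, adjusted p = 0.645) instead of 0.16. The macrophage marker MARCO did not pass in this fit (log2 0.39, adjusted p = 0.398). The value of TXNRD1 for OO against control was 0.48 (SE 0.13, 95% interval 0.20 to 0.76, adjusted p = 0.0323), the 1 call of a member in a diet comparison among the settings tried. In that fit 7.95% of all genes were called for OO against control. For both oil diets the same fit gave 0.31 for TXNRD1 (adjusted p = 0.127) instead of 0.20 (adjusted p = 0.221), and 0.32 for GCLM (adjusted p = 0.147) instead of 0.11 (adjusted p = 0.660). It gave 0.47 for NQO1 (adjusted p = 0.247) and 0.30 for SRXN1 (adjusted p = 0.264). Without the slope, TXNRD1 had 0.25 for both oil diets in the title form PigLiv. It had 0.021 in PL, where a single OO + PFA liver was fitted. GC values were known for 81.8% of the liver genes with a mean of at least 1 CPM.

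**Figure D3:**
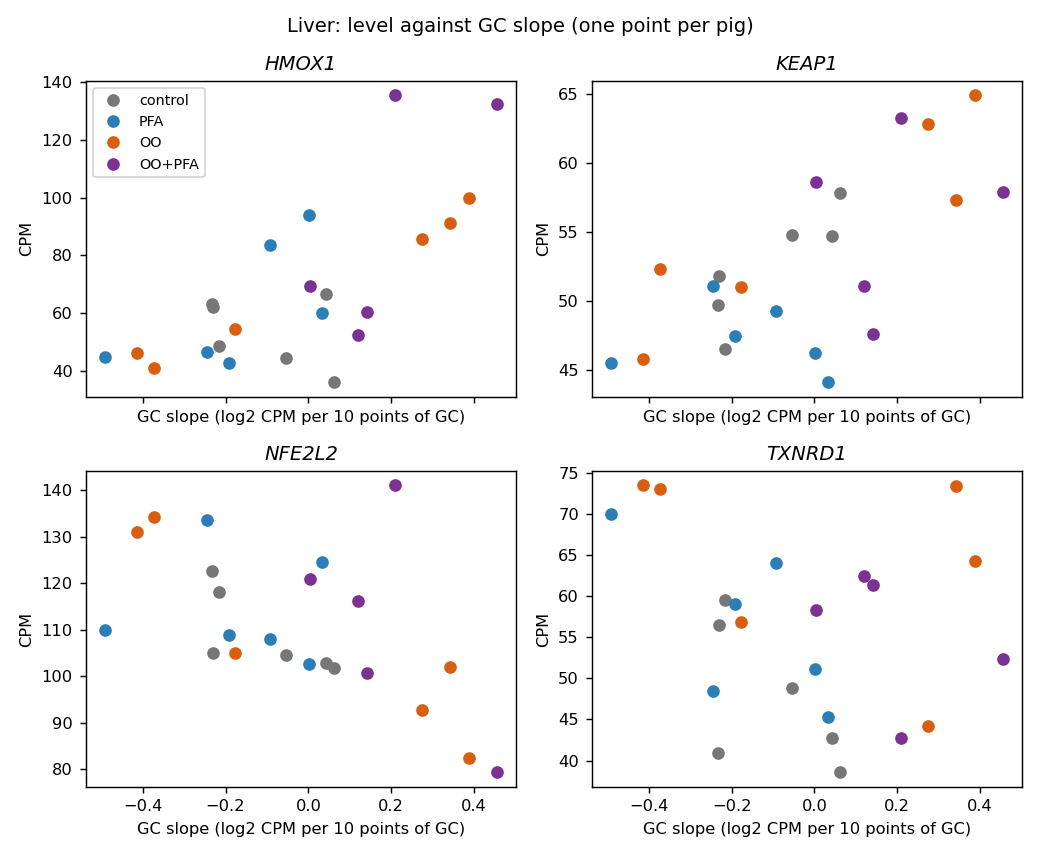
Level in liver (CPM) of HMOX1, KEAP1, NFE2L2 and TXNRD1 against the GC slope of the library (log2 CPM per 10 percentage points of GC), with 1 point per pig coloured by diet. HMOX1 and KEAP1 rise with the slope (r = 0.72 and 0.67 on log2 CPM), NFE2L2 falls (r = -0.61), and TXNRD1 has r = -0.25, or -0.46 within diets.

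The wider pathway held a few changes in the oil diets. Among 35 other known Nrf2 targets, 31 were found by symbol and 29 were tested in liver. For both oil diets, 5 rose (8.95% of all genes did) and 1 fell (2.83%), with a median log2 fold change of 0.12 (0.01 over all genes). SLC3A2, the heavy chain that carries SLC7A11 to the membrane, rose 1.80-fold (log2 0.85, SE 0.15, adjusted p = 0.00118), and PRDX6, a peroxiredoxin that reduces phospholipid peroxides, fell by 0.58 on the log2 scale (SE 0.10, adjusted p = 0.00143). SLC3A2 had 24.3 ± 7.12 CPM in control, 25.8 ± 6.07 in PFA, 43.8 ± 5.94 in OO and 46.5 ± 16.8 in OO + PFA. All OO pigs (lowest 36.9 CPM) lay above all control pigs (highest 32.9), whereas the OO + PFA pigs (lowest 31.9) overlapped control.

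The other 4 were EPHX1, a microsomal epoxide hydrolase (0.49, SE 0.13, adjusted p = 0.0214), TRIM16, a ubiquitin ligase (1.09, SE 0.33, adjusted p = 0.0373), MAFG, a small MAF partner of Nrf2 (0.78, SE 0.25, adjusted p = 0.0413), and SQSTM1, the p62 adaptor that binds KEAP1 (0.28, SE 0.09, adjusted p = 0.0390). With the GC slope in the fit these 4 calls were lost (adjusted p = 0.138, 0.446, 0.542 and 0.291), whereas SLC3A2 (log2 0.65, adjusted p = 0.0141) and PRDX6 (-0.46, adjusted p = 0.0213) still passed. Leaving out single livers ended the call of TRIM16 in 14, of MAFG in 16 and of SQSTM1 in 12 of 23 cases, with adjusted p up to 0.0956, 0.0942 and 0.0794, and of EPHX1, SLC3A2 and PRDX6 in none. For OO against control, 2 of the 29 targets were called, SLC3A2 (rose, 1.37% of all genes rose) and PRDX6 (fell, 1.34% fell). These calls were lost without single livers in 7 and 16 of 23 cases, with adjusted p up to 0.0692 and 0.0979. The SLC3A2 call was also lost in the title form PigLiv alone (adjusted p = 0.0955). The PRDX6 call was also lost with no filter (adjusted p = 0.0707), all 24 livers (0.119) and the title form as a term (0.0503). For OO + PFA against control the same 2 targets were called (5.08% of all genes were), with adjusted p = 0.0208 and 0.0378. There the calls were lost with the GC slope (adjusted p = 0.0777 and 0.123), and without single livers in 1 and 8 of 23 cases. The SQSTM1 call for both oil diets was lost with RLE factors (adjusted p = 0.0629), no filter (0.0618) and all 24 livers (0.0680). In the title form PL alone the values for both oil diets were 0.45 for SLC3A2 and -0.49 for PRDX6. That fit had a single OO + PFA liver, so it cannot decide whether these changes recur there.

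The partners and repressors showed few changes. Of 14 tested of 15 listed, 3 rose in the oil diets and none fell (8.95% and 2.83% of all genes), and none of the 3 passed with the GC slope in the fit. They were MAFG and SQSTM1, which are also on the target list, and NFE2L1 (log2 0.35, adjusted p = 0.0310, and 0.25 with adjusted p = 0.264 in the fit with the slope), a relative of NFE2L2 that was named here after its value was seen. CUL3 and RBX1, the ligase that takes Nrf2 from KEAP1, had log2 fold changes of -0.10 (SE 0.10, adjusted p = 0.561) and 0.04 (SE 0.08, adjusted p = 0.790). BACH1, which competes with Nrf2 at the response element of HMOX1, had -0.09 (SE 0.12, adjusted p = 0.697), and MAFF, another small MAF, 0.36 (SE 0.21, adjusted p = 0.265).

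SLC3A2 and SLC7A11 are also known targets of ATF4, the factor of the amino acid and stress response. The ATF4 genes given here were chosen after their values were seen, so their counts are a description and not a test. A part of ATF4 in the SLC3A2 values was not tested. Against control, 2 of 7 tested ATF4 genes (9 were listed) rose for OO (1.37% of all genes did). For OO + PFA 2 rose (5.08% of all genes were called), and in either case these were ASNS and TRIB3. The TRIB3 call for OO was lost in the title form PigLiv alone (adjusted p = 0.125). For OO + PFA the TRIB3 call was lost with the GC slope (adjusted p = 0.0584). It was also lost there without single livers in 5 of 23 cases (adjusted p up to 0.113). For both oil diets together 5 of the 7 rose (8.95% of all genes did). The 5 were ASNS (asparagine synthetase, 2.64-fold, log2 1.40, SE 0.16, adjusted p = 3.27e-06), TRIB3 (1.47, adjusted p = 0.00118), CHAC1 (1.77, adjusted p = 0.0222), PHGDH (0.71, adjusted p = 0.0140) and SESN2 (0.45, adjusted p = 0.0326). ASNS, which is no Nrf2 member, had 5.68 ± 1.84 CPM in control, 6.55 ± 0.70 in PFA, 16.8 ± 3.32 in OO and 15.5 ± 5.07 in OO + PFA. For both oil diets, ASNS, TRIB3 and CHAC1 kept an adjusted p of at most 0.05 with the GC slope in the fit. PHGDH (adjusted p = 0.135) and SESN2 (adjusted p = 0.261) did not. In the title form PigLiv alone the calls of CHAC1 and SESN2 for both oil diets were lost (adjusted p = 0.0891 and 0.0937). Leaving out single livers ended the SESN2 call in 8 of 23 cases (adjusted p up to 0.0748) and none of the other 4, and CHAC1 ranged from 1.47 to 2.44, the latter without control pig 71. In the title form PL alone, with a single OO + PFA liver, ASNS had 0.83 for both oil diets. SLC7A11 did not pass in either fit, with -0.07 (SE 0.27, adjusted p = 0.901) for both oil diets.

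Among the members themselves, levels went together over the 23 livers in some pairs only. After the diet means were subtracted, r was 0.75 between TXNRD1 and SRXN1, 0.62 between NFE2L2 and GCLC, and 0.54 between NQO1 and GCLC. It was 0.50 between KEAP1 and HMOX1, the GC-rich pair, and -0.50 between KEAP1 and TXNRD1, the lowest of 36 pairs. By r over all 23 livers, with diet means kept, the genes with a symbol most like TXNRD1 were MRPS35 (0.86, and 0.82 within diets), UQCRFS1 (0.83, and 0.84) and MRPS27 (0.83, and 0.82), which encode mitochondrial proteins. By the same measure those most like KEAP1 were EFNA4 (0.85), CLCF1 (0.84) and KDM8 (0.82), and those most like HMOX1 were ARAP1 (0.87), GJA4 (0.86) and NIBAN2 (0.85). The libraries share depth and the GC slope, so these values describe likeness and no more.

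In the ileum, no member passed the test for PFA. Of 14300 genes tested 0% were called for PFA against control by edgeR (401 genes, 0 of 9 members, at an unadjusted p under 0.05), DESeq2 called 5 genes and no member, and the smallest adjusted p of a member was 0.991. The log2 fold changes were 0.21 for NFE2L2 (SE 0.13), -0.06 for KEAP1 (SE 0.13), 0.12 for GCLC (SE 0.15), 0.19 for GCLM (SE 0.17), 0.36 for SLC7A11 (SE 0.48), 0.01 for TXNRD1 (SE 0.12), -0.30 for SRXN1 (SE 0.23), -0.03 for NQO1 (SE 0.17) and 0.04 for HMOX1 (SE 0.26). The interval lay within 2-fold for 8 of 9 members, the exception being SLC7A11 (95% interval -0.69 to 1.42).

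TXNRD1, the most abundant member per length there, had 192, 235, 224, 204 and 219 CPM in control pigs 71, 80, 92, 100 and 110, and 241, 202, 169, 239 and 228 CPM in PFA pigs 75, 95, 107, 134 and 138. NQO1 had 9.58, 13.1, 9.36, 12.3 and 8.21 CPM in the same control pigs and 8.71, 10.97, 10.3, 9.51 and 12.2 CPM in the same PFA pigs. The diets overlapped for both genes.

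Between the tissues of the same 10 pigs the members differed widely, and not in 1 direction. Of 9 members 6 were lower in ileum (37.5% of all genes were) and 2 higher (40.6%), with 78.1% of 14982 genes called in all. The shares of all genes without overlap of the tissues, or with 1 direction in all 10 pigs, were not computed. Values for this comparison were scaled over both tissues together, and so differ from those given for each tissue alone. The direction of the smaller differences depends on this scaling. Scaled within each tissue, the control means in liver and ileum were 52.6 and 71.7 CPM for KEAP1. They were 38.4 and 39.6 for GCLM, and 109 and 204 for NFE2L2. The control means of the other members kept their direction. The ileum titles take another form than the liver titles, and the paper gives a higher lower bound of RNA quality for ileum. Effects of tissue, RNA quality and a possible series of libraries cannot be told apart.

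HMOX1 differed most, with 52.4 to 136.6 CPM in liver (median 87.6) and 4.99 to 13.4 in ileum (median 7.80), which is 10.9-fold lower in ileum (log2 -3.45, SE 0.20, adjusted p = 1.06e-12). GCLC had 170 to 300 CPM in liver (median 233) and 24.3 to 41.1 in ileum (median 32.1), 7.31-fold lower (log2 -2.87, SE 0.12, adjusted p = 6.24e-15). In neither gene did the tissues overlap.

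SLC7A11 was 6.70-fold lower in ileum (log2 -2.74, SE 0.32, adjusted p = 9.37e-08), NQO1 2.74-fold (log2 -1.45, SE 0.18, adjusted p = 2.88e-07), GCLM 1.92-fold (log2 -0.94, SE 0.15, adjusted p = 6.34e-06) and KEAP1 1.52-fold (log2 -0.61, SE 0.08, adjusted p = 1.14e-06). On the scale over both tissues, all 6 genes were lower in the ileum in 10 of 10 pigs. The ranges of the tissues overlapped for NQO1 and not for the others.

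The thiol reductases went the other way. TXNRD1 had 56.0 to 104 CPM in liver (median 72.4) and 115 to 163 in ileum (median 149), 1.94-fold higher in ileum (log2 0.95, SE 0.11, adjusted p = 6.10e-08). SRXN1 had 8.94 to 18.5 CPM in liver (median 13.1) and 12.9 to 33.2 in ileum (median 21.6), 1.71-fold higher (log2 0.78, SE 0.16, adjusted p = 1.98e-04). Both were higher in the ileum in 10 of 10 pigs, without overlap of the tissues for TXNRD1 and with overlap for SRXN1. NFE2L2 did not pass (log2 -0.15, SE 0.08, 95% interval -0.32 to 0.03, adjusted p = 0.120) and was higher in the ileum in 2 of 10 pigs.

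**Figure D4:**
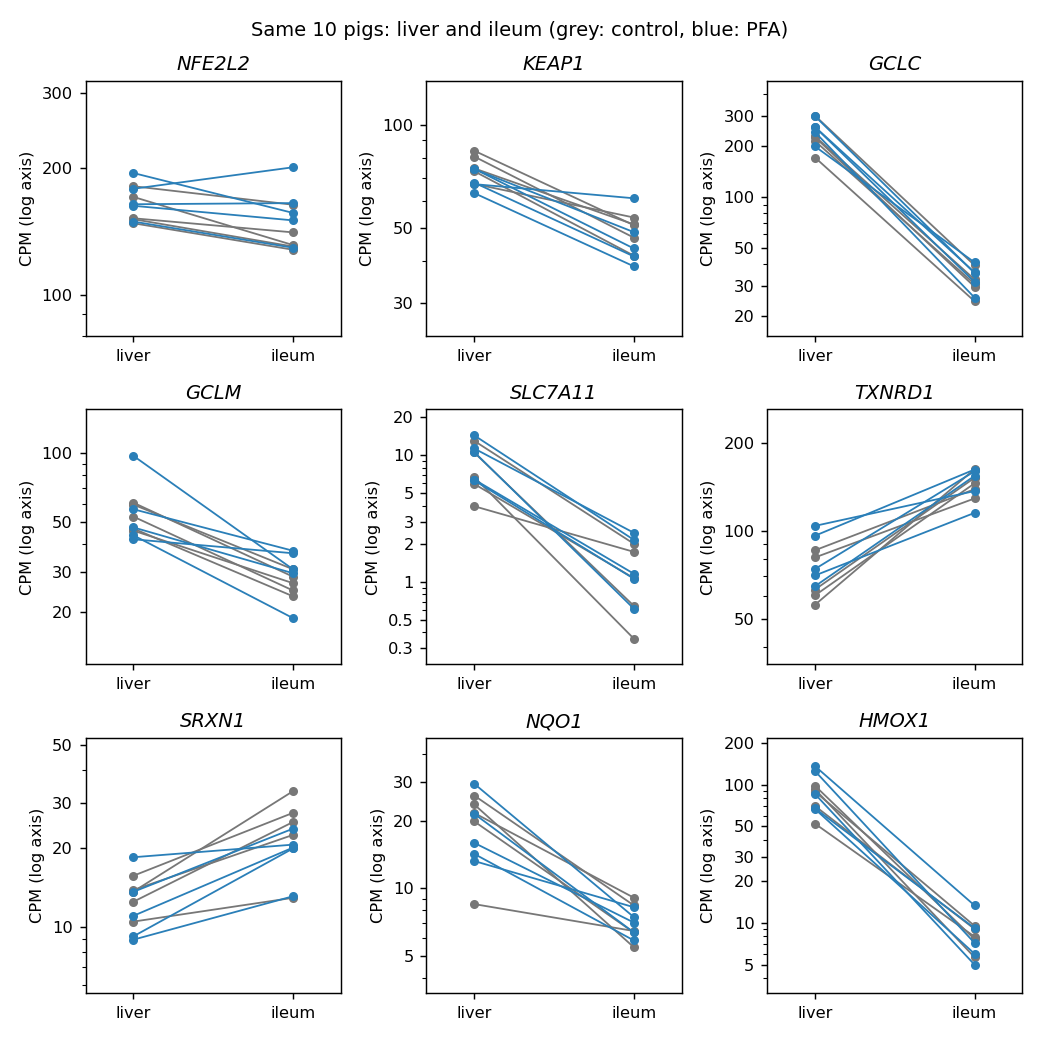
Level of each gene (CPM scaled over both tissues together, log axis) in liver and ileum of the same 10 pigs, each joined by a line, grey for control and blue for PFA. Lines fall from liver to ileum in 6 genes and rise in TXNRD1 and SRXN1 in every pig, and NFE2L2 falls in 8 and rises in 2 of 10 pigs.

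Per length of exon the order of the members differed between tissues as well. In liver GCLC and HMOX1 led, at 59.5 ± 10.3 and 57.2 ± 17.2 CPM per kb (SD, n = 10) with overlapping ranges, followed without overlap by KEAP1 (22.8 ± 2.04), TXNRD1 (21.9 ± 4.63), NFE2L2 (16.3 ± 1.56), NQO1 (11.4 ± 3.75) and GCLM (10.8 ± 3.19), each of which overlapped the next. SRXN1 (5.01 ± 1.17) and SLC7A11 (0.954 ± 0.371) followed, each apart from the member before it. In ileum TXNRD1 led alone at 42.1 ± 4.52 CPM per kb. KEAP1 (15.0 ± 2.14), NFE2L2 (14.8 ± 2.27), SRXN1 (8.59 ± 2.40), GCLC (8.14 ± 1.38), GCLM (5.63 ± 1.10), HMOX1 (5.20 ± 1.57) and NQO1 (4.17 ± 0.702) followed, each overlapping the next, and SLC7A11 was last at 0.142 ± 0.0767. Exon lengths came from RefSeq and can differ from those of the Ensembl genes on which reads were counted.

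Of the 29 other Nrf2 targets tested between tissues, 21 were lower and 4 higher in ileum (37.5% and 40.6% of all genes). Their median was -1.11 on the log2 scale (0.05 over all genes). Among the lower ones were EPHX1 (-5.60, SE 0.20, adjusted p = 4.96e-16), the biliverdin reductase BLVRB (-4.72, adjusted p = 6.74e-13) and the ferritin light chain FTL (-2.70, adjusted p = 1.23e-14). All 5 tested genes of the heme and iron list were lower on the scale over both tissues, as were 37.5% of all genes. Scaled within each tissue, FECH of that list had control means of 27.3 CPM in liver and 28.5 in ileum. The 4 higher ones were GPX2, the gastrointestinal glutathione peroxidase (adjusted p = 9.20e-16), which did not pass the low-count filter of the liver fit, SLC6A9, a glycine transporter (3.09, adjusted p = 1.19e-08), GSR, glutathione reductase (0.94, adjusted p = 5.22e-07), and PRDX1, a peroxiredoxin (0.55, adjusted p = 2.23e-04). All 6 macrophage markers were lower in ileum as well on the scale over both tissues. As CPM of each library's own total, however, their sums overlapped. They ranged from 215 to 947 in control livers and from 239 to 759 in control ilea. In PFA pigs they ranged from 290 to 926 in liver and from 313 to 794 in ileum. The part of cell composition in the tissue differences was not tested.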

How the data were processed

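RNA-Seq counts of 24 livers and 10 ilea were analyzed. The authors aligned the reads with STAR 2.6.1d to Sscrofa11.1 and deposited raw read counts per Ensembl gene from HTSeq. The annotation release and the strand option are not given in the sources used here, so reads of overlapping or antisense genes cannot be told apart. The 34 files of single samples equalled the tables of the whole series.

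Counts were tested with edgeR 4.0.16 (quasi-likelihood, two-sided, TMM, filterByExpr, Benjamini-Hochberg over all genes kept) in R 4.3.3, with a gene called where the adjusted p was 0.05 or less. For the liver 23 libraries were fitted, and the OO + PFA library that the study excluded over its RNA quality was not. CPM are counts scaled by TMM library sizes, with a prior count of 2 for log2 CPM. DESeq2 1.42.0 was an alternative. The other alternatives were RLE factors, no filter, at least 10 counts in every library, a required fold change of 2, all 24 livers, terms for the title form or GC slope, fits of the compared diets or of 1 title form alone, and each pig left out in turn. Correlations used 100000 permutations. The test was checked on simulated data. Positions, exon lengths and GC content came from RefSeq by unique symbol, for 13657 genes.

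Named were all members, the listed partners, other targets called in liver (at most 12), and for the 3 members with the smallest p over the diets the 3 genes most like them. ATF4 targets, NFE2L1, MARCO and the targets named between tissues were chosen after their values were seen. Members and lists were chosen with earlier results of these data known. Depth limits the least abundant member most: SLC7A11 had 10 to 78 reads per ileum library.

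The replicate numbers are those of the pigs, so liver and ileum with the same number come from the same animal. Their deviations from the group means correlated between -0.18 and 0.46 over 14982 genes in the 10 pigs.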

Additional observations from a re-analysis of the deposited data

Results flagged for a closer look

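In 54 groups of pigs (9 genes in 6 groups) the gap of the highest or lowest pig to the next was compared with the range of the group, a check that chance alone passes in about 1 of 20 groups. It was passed in 2 of 54 groups, no more often than that rate gives, and both times for GCLM. In PFA liver, pig 95 had 65.3 CPM of GCLM, whereas the other 5 pigs had 29.2 to 37.6. In OO + PFA liver, 1 pig had 45.6 CPM, whereas the other 4 had 36.8 to 38.5, and this value lay within the range of the control pigs. Pig 95 also had the lowest GC slope of all livers (-0.49), and the part of the slope in its GCLM value was not tested.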

How the results depend on the processing

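No member passed the test in a diet comparison under any alternative except TXNRD1, which for OO against control passed with the GC slope as a term (log2 0.48, 1 member called). The number of genes called moved more. With DESeq2 it was 1788 over the 4 diets, 1087 for OO against control, 1346 for OO + PFA against control, 37 for PFA against control, 31 for OO + PFA against OO, 161 for the interaction and 5 for PFA in ileum. With all 24 livers it was 1113 over the 4 diets, 224 for OO, 1530 for OO + PFA against control and 1 for OO + PFA against OO. With the GC slope it was 1100 for OO, 443 for both oil diets, 29 for PFA and 1 for OO + PFA against OO. With the compared diets alone it was 194 for OO and 1690 for OO + PFA against control. It was 114 for OO in the form PigLiv, and 8 for OO and 30 for both oil diets in the form PL. A required fold change of 2 left 153 genes for OO, 453 for OO + PFA against control, 469 for both oil diets, and 6808 genes and 4 members between tissues. The interaction had 2 with RLE factors and 2 with no filter. With each pig left out, genes called ranged from 297 to 1450 over the 4 diets, 167 to 1325 for OO, 191 to 1127 for OO + PFA against control, 0 to 7 for OO + PFA against OO, 837 to 2672 for both oil diets, 0 to 5 for the interaction and 11373 to 11783 between tissues. Members called stayed at 0 in the diet comparisons and at 8 between tissues. With a replicate block for the pig, 11720 genes and 8 members were called between tissues, and NFE2L2 had a log2 fold change of -0.15 (edgeR adjusted p = 0.0907), so the block changed no call of a member. Some log2 fold changes that had not passed the test turned direction, NQO1 (0.28 for OO) and SRXN1 (0.24 for both oil diets) among them. For OO against control these were NFE2L2 (0.037 with the GC slope, 0.092 in PL), KEAP1 (-0.18 in PL), NQO1 (-0.099 in PL), SLC7A11 (0.22 in PigLiv) and GCLC (-0.013 with RLE factors or DESeq2, -0.0095 with the title form, -0.020 with the compared diets alone or in PigLiv, -0.031 in PL). For both oil diets these were NFE2L2 (0.10 with the GC slope, 0.24 in PL), GCLC (0.0021 with at least 10 counts, 0.0044 with the title form, 0.081 with the GC slope, 0.021 in PL), SRXN1 (-0.046 in PL), SLC7A11 (0.039 with the title form, 0.055 with the GC slope, 0.25 in PigLiv), BACH1 (0.085 with the GC slope, 0.0091 in PL), CUL3 (0.073 and 0.047) and RBX1 (-0.093 in PL). For PFA in ileum these were KEAP1 (0.043) and GCLC (-0.023), both with the GC slope. With each pig left out, values turned for OO in NFE2L2 (-0.088 to 0.051), GCLC (-0.070 to 0.10) and SLC7A11 (-0.33 to 0.089), for both oil diets in NFE2L2 (-0.076 to 0.023), GCLC (-0.067 to 0.056) and SLC7A11 (-0.18 to 0.060), and in ileum in KEAP1 (-0.18 to 0.0022), NQO1 (-0.10 to 0.067), HMOX1 (-0.22 to 0.17) and TXNRD1 (-0.035 to 0.085). The cause of these shifts was not tested.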
